A study of Mus musculus with 7 samples.

Results

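The genes described are 10 components of innate sensing in mouse skin: the inflammasome sensors Nlrp3 and Aim2, the inflammasome adaptor Pycard, the gasdermins Gsdmd and Gsdma, the Toll-like receptors Tlr2, Tlr4 and Tlr7, the co-receptor Cd14 and the receptor adaptor Myd88. They were chosen by name for these roles, with the caspases left out, from the 55450 genes of the count table. Earlier results of these data were known when they were chosen. All 10 were among the 17959 genes with enough counts to be tested. The study sequenced whole dorsal skin of wild type C57BL/6 male mice aged 24 months, 1 library per mouse, after 5 days of topical treatment under a semi-occlusive dressing with either 5 μM ABT-263 (navitoclax, a Bcl-2 family inhibitor used as a senolytic) (3 mice, numbered 476 to 478) or the vehicle DMSO alone (4 mice, numbered 480 to 483). Both groups had their hair clipped, then removed with a depilatory lotion, and their skin wiped with ethanol. No untreated or young skin was among these libraries. Values are CPM (read pair counts scaled to a common library size, with TMM factors), and changes are log2 fold changes of ABT-263 over DMSO from edgeR's quasi-likelihood test, called at an adjusted p under 0.05 over all genes tested.

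Toll-like receptors are membrane receptors for microbial and damage-derived ligands: TLR2 and TLR4 sit at the cell surface, where CD14 hands them lipopeptides and lipopolysaccharide, and TLR7 reads single-stranded RNA in endosomes. Most of them signal through the adaptor MyD88 to NF-κB, which in turn induces Nlrp3 and the interleukin-1β precursor. NLRP3 and AIM2 then assemble with the adaptor ASC, the product of Pycard, to activate caspase-1, which matures interleukin-1β and cleaves gasdermin D into a membrane pore. In skin, macrophages and neutrophils carry much of this machinery, while keratinocytes also express Pycard and, in the outer epidermis and hair follicle, gasdermin A.

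Depth lay between 20344364 and 43562330 counted read pairs per library, and every ABT-263 library was deeper than every DMSO library. Keratinocyte transcripts marked all 7 libraries as skin, with Krt14 between 8389 and 24863 CPM. Across all genes tested, 12.4% were called higher and 11.7% lower after ABT-263, with a median log2 fold change of 0.0022. In 18.8% of all genes tested every ABT-263-treated mouse lay above every DMSO-treated mouse, and in 18.3% below. The labels do not say whether mice shared a cage or a processing day. In bulk skin, more cells of a type and more RNA per cell cannot be told apart.

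Of the 10 genes, 7 were called higher after ABT-263 (Nlrp3, Aim2, Gsdmd, Tlr2, Tlr4, Cd14 and Myd88), 0 were called lower and 3 were not called (Pycard, Gsdma and Tlr7), against the 12.4% of all genes called higher. The same 7 genes were those in which all ABT-263-treated mice stood above all DMSO-treated mice, as in 18.8% of all genes tested. The median log2 fold change over all 10 genes was 1.52. In each of the 7 genes called higher the highest value belonged to ABT-263-treated mouse 476, which was also the highest ABT-263-treated mouse in 56.2% of all 2234 genes called higher. Without that mouse 3 of the 10 genes were called (Nlrp3, Tlr4 and Cd14), without DMSO-treated mouse 481 also 3 (Nlrp3, Aim2 and Cd14), and without DMSO-treated mouse 482 or 483 only Nlrp3 and Cd14.

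**Figure D1:**
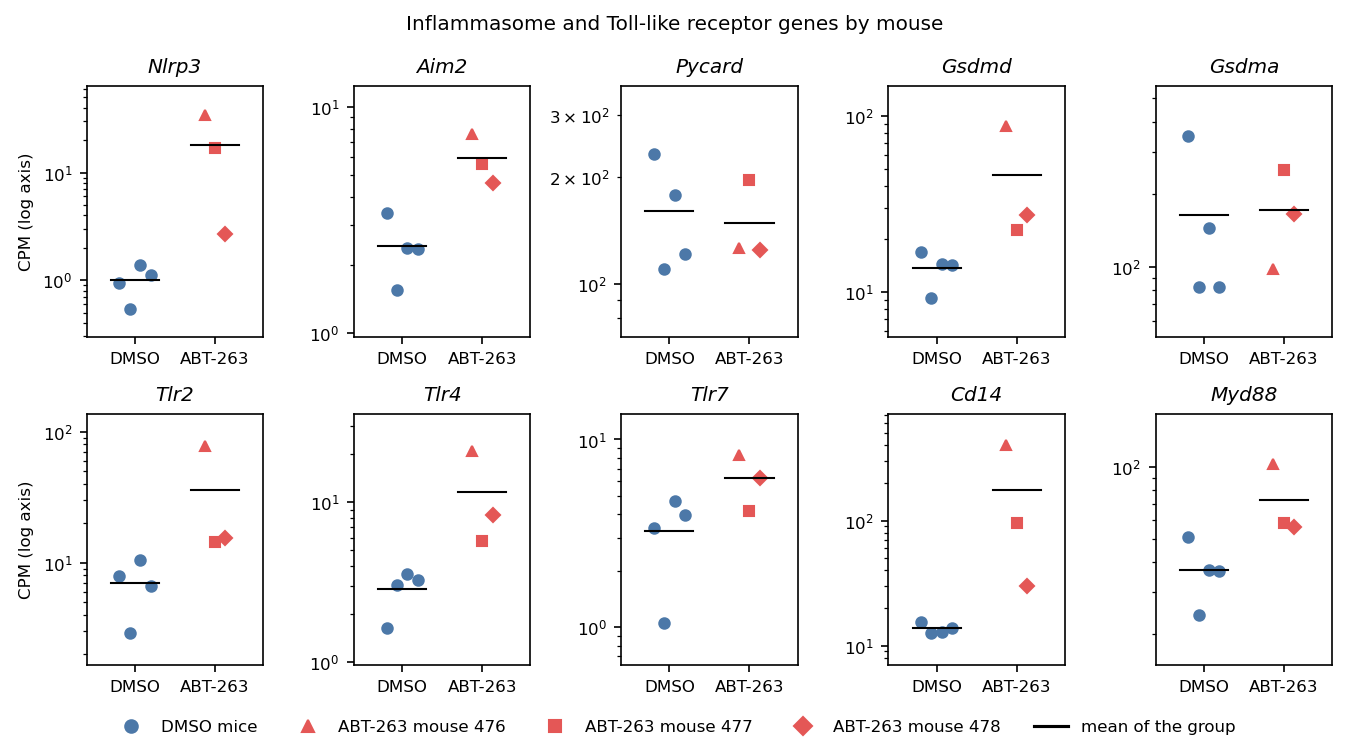
CPM of each gene on a logarithmic axis, with 1 point per mouse (4 DMSO, 3 ABT-263) and a bar at the group mean. In Nlrp3, Aim2, Gsdmd, Tlr2, Tlr4, Cd14 and Myd88 the groups do not overlap and ABT-263-treated mouse 476 (triangle) is the highest, whereas in Pycard, Gsdma and Tlr7 they overlap.

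Nlrp3, which encodes the sensor of potassium efflux, crystals and membrane damage, showed the largest rise of the 10. It lies on chromosome 11 from 59541568 to 59566956 (GRCm38, plus strand). After DMSO its level was 0.940, 0.545, 1.38 and 1.11 CPM in mice 480 to 483, from 13 to 27 read pairs per library. After ABT-263 it was 34.6 CPM in mouse 476, 16.9 CPM in mouse 477 and 2.68 CPM in mouse 478. Nlrp3 was thus low in all DMSO-treated mice and higher in all treated mice, although the treated mice differed among themselves by 12.9-fold. The change was 4.18 on the log2 scale (SE 0.78, 95% confidence interval 2.37 to 6.00, edgeR adjusted p = 0.0127). Nlrp3 kept its call in all 7 fits that left out a mouse, with log2 fold changes between 3.31 and 4.70, and the mean of mice 477 and 478 alone was 9.87 times the DMSO mean.

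Aim2, the sensor of cytosolic double-stranded DNA, rose less and more evenly. It lies on chromosome 1 from 173350879 to 173466040 (plus strand). Its level was 3.39, 1.55, 2.36 and 2.34 CPM in DMSO-treated mice 480 to 483. In ABT-263-treated mice 476, 477 and 478 it was 7.60, 5.59 and 4.59 CPM. The treated mice were all higher than the controls and differed among themselves by 1.66-fold, the second smallest ratio of highest to lowest in that group among the 10 genes after Pycard. Aim2 rose by 1.29 on the log2 scale (SE 0.31, interval 0.59 to 2.00, edgeR adjusted p = 0.0227). The call was lost without ABT-263-treated mouse 476 and without DMSO-treated mice 482 or 483, with edgeR adjusted p-values up to 0.0740.

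Pycard encodes ASC, the adaptor that links both sensors to caspase-1, and was not called. It is on chromosome 7 from 127989708 to 127993867 (minus strand). Its level was 232, 109.8, 178 and 121 CPM in DMSO-treated mice 480 to 483, and 126, 196 and 124 CPM in ABT-263-treated mice 476, 477 and 478. The groups overlapped throughout, and the highest mice were a DMSO-treated one (480) and an ABT-263-treated one (477). The log2 difference was -0.11 (SE 0.29, edgeR adjusted p = 0.810), with a 95% confidence interval from -0.78 to 0.56, which a 2-fold change in either direction would lie outside. Some 12.8% of its exon bases lie opposite exons of Gm45205, which counting by strand keeps apart.

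Within each library Nlrp3 stood closer to Pycard after ABT-263 than after DMSO: the log2 ratio of Nlrp3 to Pycard counts was between -7.92 and -6.75 in the 4 DMSO-treated mice and -1.87, -3.53 and -5.53 in ABT-263-treated mice 476, 477 and 478. Those ranges do not overlap. The log2 ratio of Aim2 to Nlrp3 was between 0.76 and 1.83 after DMSO and -2.18, -1.60 and 0.77 after ABT-263, so mouse 478 stood inside the DMSO range. These ratios do not depend on the scaling of library size and were not tested.

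Gasdermin D, the pore-forming substrate of the inflammatory caspases, rose, whereas gasdermin A did not pass the test. Gsdmd (chromosome 15 from 75862327 to 75867408, plus strand) was at 16.9, 9.27, 14.3 and 14.2 CPM in DMSO-treated mice 480 to 483. It was at 88.2, 22.5 and 27.3 CPM in ABT-263-treated mice 476, 477 and 478. All treated mice were above the controls, mouse 476 by far the most and mouse 477 by the least. The change was 1.75 on the log2 scale (SE 0.48, interval 0.64 to 2.85, edgeR adjusted p = 0.0356). Without mouse 476 it was 0.87 and lost the call (edgeR adjusted p = 0.0509), and it was called in 2 of the 7 fits that left out a mouse.

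Gsdma (chromosome 11 from 98664351 to 98677708, plus strand), the gasdermin of differentiating keratinocytes, was at 348, 82.8, 144 and 82.6 CPM in DMSO-treated mice 480 to 483. It was at 98.1, 251 and 166 CPM in ABT-263-treated mice 476, 477 and 478. Mouse 480 alone held the upper end of the DMSO range, and the treated mice fell between the extremes. The log2 difference was 0.06 (SE 0.56, edgeR adjusted p = 0.947), and its 95% confidence interval, from -1.24 to 1.37, leaves room for a change of 2-fold in either direction. In mouse 476 Gsdma and Gsdmd were close to equal in counts (log2 ratio 0.15), while in the other 6 mice Gsdma was the more abundant, with log2 ratios between 2.53 and 4.36.

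Among the Toll-like receptors, Tlr2 and Tlr4 rose and Tlr7 did not pass the test. Tlr2 (chromosome 3 from 83836272 to 83841767, minus strand), which recognizes bacterial lipopeptides together with Tlr1 or Tlr6, was at 7.89, 2.94, 10.51 and 6.65 CPM in DMSO-treated mice 480 to 483. In ABT-263-treated mice 476, 477 and 478 it was at 77.6, 14.4 and 15.5 CPM. Mice 477 and 478 lay just above the highest DMSO-treated mouse, and mouse 476 was 5.38 times as high as mouse 477. The log2 fold change was 2.36 (SE 0.68, interval 0.78 to 3.93, edgeR adjusted p = 0.0417), and 1.11 without mouse 476 (edgeR adjusted p = 0.119). The call was also lost without any 1 of the 4 DMSO-treated mice (edgeR adjusted p from 0.0681 to 0.0940), so Tlr2 was called in 2 of the 7 fits that left out a mouse.

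Tlr4 (chromosome 4 from 66827584 to 66930284, plus strand), the receptor for lipopolysaccharide, was at 1.64, 3.02, 3.54 and 3.28 CPM in DMSO-treated mice 480 to 483. In ABT-263-treated mice 476, 477 and 478 it was at 20.98, 5.69 and 8.28 CPM. The control values were close together apart from mouse 480, the lowest, and no treated mouse reached down to them. Tlr4 rose by 2.02 on the log2 scale (SE 0.47, interval 0.94 to 3.10, edgeR adjusted p = 0.0216). It stayed called without mouse 476, at 1.29 (edgeR adjusted p = 0.0482), but not without DMSO-treated mice 481, 482 or 483, where edgeR adjusted p-values reached 0.0538.

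Tlr7, the endosomal receptor for single-stranded RNA on the X chromosome from 167304929 to 167330558 (minus strand), was at 3.39, 1.05, 4.72 and 3.94 CPM in DMSO-treated mice 480 to 483. It was at 8.24, 4.18 and 6.26 CPM in ABT-263-treated mice 476, 477 and 478. ABT-263-treated mouse 477 fell below DMSO-treated mouse 482, and mouse 481 lay far under the other controls. The log2 difference of 0.93 (SE 0.46, edgeR adjusted p = 0.171) had an interval from -0.13 to 1.99, so neither no change nor a rise of nearly 4-fold was outside it.

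Cd14, on chromosome 18, encodes the co-receptor that presents lipopolysaccharide to TLR4, and was the steadiest of the 10 genes among controls. Its level was 15.6, 12.5, 12.9 and 14.0 CPM in DMSO-treated mice 480 to 483, a coefficient of variation of 9.97%. In ABT-263-treated mice 476, 477 and 478 it was 401, 95.7 and 30.0 CPM. Even mouse 478, the lowest of the treated mice, stood clear of the controls, yet mouse 476 was 13.4 times higher than mouse 478. The log2 fold change was 3.67 (SE 0.76, interval 1.90 to 5.44, edgeR adjusted p = 0.0170), and Cd14 kept its call in all 7 fits that left out a mouse, at 2.20 without mouse 476.

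Myd88 (chromosome 9 from 119335934 to 119341411, minus strand), the adaptor shared by TLR2, TLR4, TLR7 and the interleukin-1 receptor, was at 51.0, 24.1, 37.1 and 36.6 CPM in DMSO-treated mice 480 to 483. In ABT-263-treated mice 476, 477 and 478 it was at 103, 58.2 and 55.9 CPM. Mice 477 and 478 were only slightly above DMSO-treated mouse 480. Myd88 rose by 0.96 on the log2 scale (SE 0.29, interval 0.28 to 1.64, edgeR adjusted p = 0.0477), the weakest call of the 7. The call was lost in 6 of the 7 fits that left out a mouse, all but the one without DMSO-treated mouse 480. Some 11.3% of its exon bases lie opposite exons of Acaa1a, which counting by strand keeps apart.

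**Figure D2:**
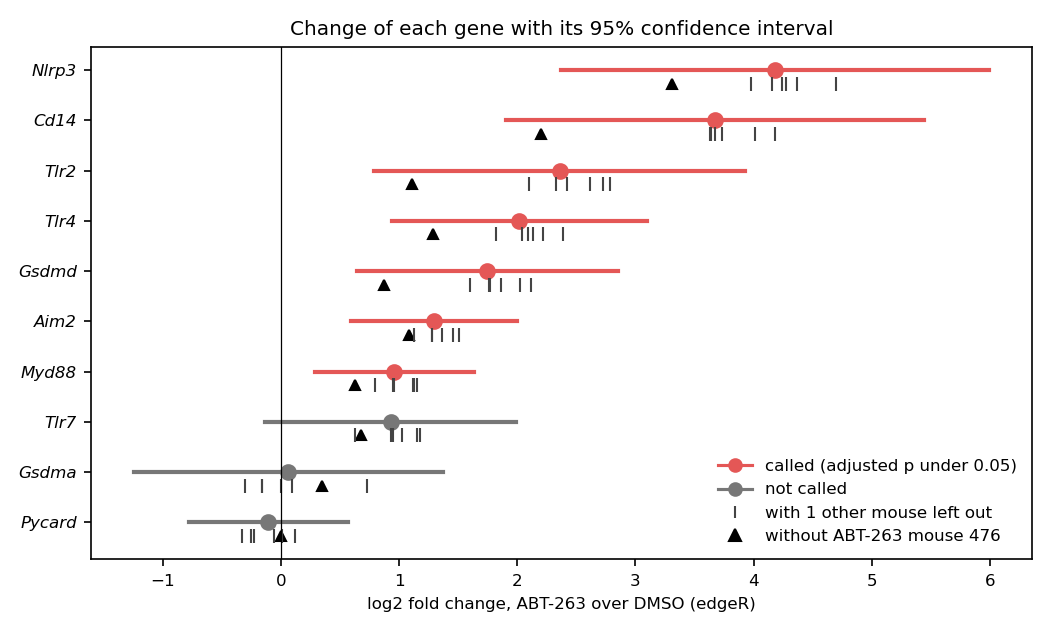
Log2 fold change of ABT-263 over DMSO for each gene from edgeR, with the 95% confidence interval as a line (red for the 7 genes called, grey for the 3 not called). Small marks below each line give the value with 1 mouse left out, and the triangle the value without ABT-263-treated mouse 476, which is the lowest of the 7 such values in Nlrp3, Cd14, Tlr2, Tlr4, Gsdmd, Aim2 and Myd88.

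Levels of different genes were compared as TPM, in which counts are divided by exon length and each library is scaled to the same sum. In DMSO-treated skin the mean TPM fell in the order Gsdma (116 ± 77.0), Pycard (83.6 ± 21.6), Myd88 (28.7 ± 5.78), Cd14 (15.99 ± 0.714), Gsdmd (11.5 ± 1.76), Tlr2 (4.602 ± 1.95), Tlr7 (1.59 ± 0.753), Aim2 (1.37 ± 0.295), Tlr4 (1.06 ± 0.359) and Nlrp3 (0.491 ± 0.166; SD, n = 4 for each). Neighbours in that order overlapped between mice for Gsdma with Pycard, Tlr2 with Tlr7, Tlr7 with Aim2, Aim2 with Tlr4 and Tlr4 with Nlrp3. Pycard was separate from Myd88, Myd88 from Cd14, Cd14 from Gsdmd and Gsdmd from Tlr2: the lowest Myd88 value (21.3 TPM), for example, was above the highest Cd14 value (16.5 TPM). After ABT-263 Cd14 had the highest mean, 226 ± 253 TPM (SD, n = 3), with a range from 42.9 to 515 TPM that took in those of Gsdma (143 ± 59.6) and Pycard (88.6 ± 19.8). Nlrp3 moved from the lowest mean of the 10 to 9.87 ± 8.70 TPM, above those of Tlr4 (4.77 ± 3.23), Aim2 (3.84 ± 0.863) and Tlr7 (3.50 ± 1.17), although mouse 478, at 1.64 TPM, remained below the lowest value of each of these 3 genes.

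**Figure D3:**
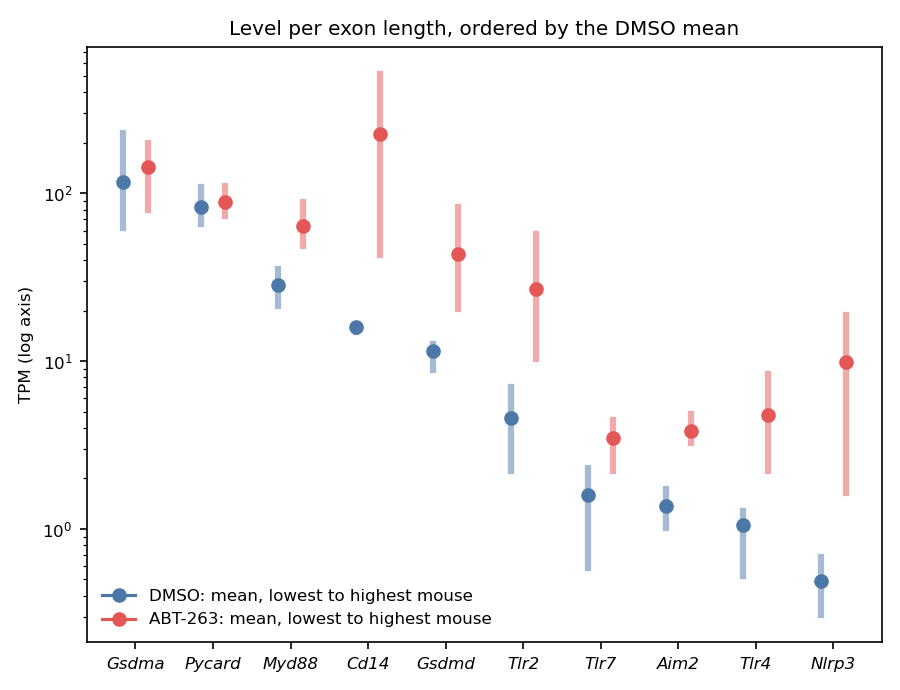
Level of each gene per exon length (TPM, logarithmic axis), ordered by the mean of the DMSO-treated mice; points are group means and bars run from the lowest to the highest mouse. Gsdma and Pycard lead after DMSO, and after ABT-263 the mean of Cd14 (226 TPM) is above both, with mice spread from 42.9 to 515 TPM.

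Receptor and co-receptor did not keep a fixed ratio. The log2 ratio of Tlr4 to Cd14 counts was -3.24 in DMSO-treated mouse 480 and between -2.08 and -1.86 in the other controls. It was -4.25, -4.07 and -1.86 in ABT-263-treated mice 476, 477 and 478, so mouse 478 had the ratio of most controls and the groups overlapped. The log2 ratio of Tlr2 to Tlr4 ran from -0.04 to 2.26 after DMSO and from 0.91 to 1.89 after ABT-263. That ratio differed by 0.18 between the group means, less than its SD of 0.97 among the DMSO-treated mice.

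The upstream sequence of 5 of the genes was read from RefSeq (GRCm38.p6) to show which short motifs lie before the start of genes that were called and of Pycard, which was not. The other genes, Cd14 among them, are not included, so these windows do not compare called genes with genes not called. Each window covered the 250 bases before a RefSeq start and was searched on both strands for the NF-κB consensus (by name), the interferon response motif (GAAA, any 2 bases, GAAA), the AP-1 motif TGANTCA and the PU.1 motif GAGGAAGT, where N is any base. These occur in 3.90%, 2.98%, 6.75% and 2.44% of all 32851 such windows. Below, each sequence runs 5′ to 3′ on the gene's strand and stops before the first annotated exon base, with motif matches in capitals. The RefSeq starts of Myd88 and Aim2 lie inside the gene spans given above, which include longer GENCODE transcripts. Of their 250-base windows 227 and 217 bases are printed, up to a GENCODE exon base of the same gene. Whether the windows are intronic to the longer transcripts was not tested. The RefSeq start of Tlr2 also lies inside its gene span. Its window ran from 83841609 to 83841858, and only the part from 83841768, outside the GENCODE exon, is printed.
Nlrp3, chr11:59541319-59541567, plus strand: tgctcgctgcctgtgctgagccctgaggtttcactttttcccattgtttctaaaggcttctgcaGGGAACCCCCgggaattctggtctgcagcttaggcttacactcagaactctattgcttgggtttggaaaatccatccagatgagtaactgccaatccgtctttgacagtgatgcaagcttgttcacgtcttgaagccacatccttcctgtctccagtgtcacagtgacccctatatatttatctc
Tlr2, chr3:83841768-83841858, minus strand: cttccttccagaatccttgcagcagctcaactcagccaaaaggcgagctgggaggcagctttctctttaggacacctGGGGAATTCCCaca
Myd88, chr9:119340042-119340268, minus strand: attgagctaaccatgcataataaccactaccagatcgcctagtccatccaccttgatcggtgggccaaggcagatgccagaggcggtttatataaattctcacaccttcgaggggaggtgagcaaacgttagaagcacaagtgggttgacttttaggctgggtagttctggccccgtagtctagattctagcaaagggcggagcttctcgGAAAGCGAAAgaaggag
Aim2, chr1:173420354-173420570, plus strand: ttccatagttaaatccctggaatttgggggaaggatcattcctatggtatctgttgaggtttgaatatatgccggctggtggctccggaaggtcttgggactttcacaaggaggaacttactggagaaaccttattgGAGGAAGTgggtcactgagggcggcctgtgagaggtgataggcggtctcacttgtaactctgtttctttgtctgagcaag
Pycard, chr7:127993868-127994117, minus strand: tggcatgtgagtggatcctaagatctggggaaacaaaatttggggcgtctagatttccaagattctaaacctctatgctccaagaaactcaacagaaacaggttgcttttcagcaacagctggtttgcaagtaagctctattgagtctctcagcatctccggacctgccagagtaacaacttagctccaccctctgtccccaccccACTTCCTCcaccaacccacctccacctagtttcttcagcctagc

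Distances are counted from the RefSeq start. The NF-κB consensus matched in Nlrp3, between 186 and 177 bases before the start. In Tlr2 overlapping matches on both strands lay between 173 and 163 bases before it. These Tlr2 matches are near the end of the printed sequence, close to the first GENCODE exon base. The interferon response motif matched in Myd88, between 40 and 31 bases before the start. The PU.1 motif matched in Aim2, which rose, and in Pycard, which was not called. The AP-1 motif matched in none of these windows, and a second RefSeq start of Nlrp3 had no match to any of the 4 motifs. A match describes letters in a window and not a bound site.

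Around the 10 genes, 7 lists of pathway genes held 79 genes (the 10 included), of which 73 were tested. Of these, 27 were higher, 2 lower and 44 not called, where 12.4% of all genes tested were higher and 11.7% lower, with a median log2 fold change of 0.85 against 0.0022 over all genes tested. The lists were assembled with earlier results of these data known. Without ABT-263-treated mice 476 and 478 in turn 12 and 16 of the genes were called higher, and without DMSO-treated mice 481, 482 and 483 in turn 12, 8 and 7. Of the genes called in these lists, Nlrp3, Cd14, Ifi204, Tlr8, Lbp and Pik3ap1 kept the call in all 7 fits that left out a mouse, and no other did.

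Of the 11 inflammasome sensors tested, 5 rose and 0 fell (median log2 fold change 1.33). Beside Nlrp3 and Aim2 these were Ifi204, a DNA-binding relative of Aim2 (2.40, from 11.6 ± 3.09 to 61.0 ± 47.5 CPM), Mefv, which encodes the pyrin of the RhoA-sensing inflammasome (3.27, from 0.875 ± 0.619 to 8.50 ± 8.69 CPM), and Naip2, a receptor for the rod of bacterial secretion systems that acts with Nlrc4 (1.90, and 0.89 and not called without mouse 476). Nlrc4 itself had a log2 difference of 1.33 and was not called (edgeR adjusted p = 0.0951). Nlrp10, a keratinocyte-rich member of the family, was at 31.1 ± 7.92 CPM after DMSO and 26.3 ± 7.84 CPM after ABT-263 (edgeR adjusted p = 0.519).

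Of the 9 inflammasome adaptor and regulator genes, 3 rose and 0 fell (median 0.47). The guanylate-binding protein Gbp2, which helps open vacuoles and bacteria to cytosolic sensors, went from 12.1 ± 7.26 to 236 ± 324 CPM (log2 fold change 4.29, edgeR adjusted p = 0.0259), with 610 CPM in mouse 476 and 41.5 and 57.8 CPM in mice 477 and 478. Gbp5 and Txnip, an NLRP3-binding redox protein, were also called (3.46 and 0.60), each in 2 of the 7 fits that left out a mouse. Without mouse 476 the log2 fold change of Gbp5 was 1.47. Nek7, the kinase that licenses NLRP3 assembly, had a log2 difference of 0.20 and was not called.

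Of the 8 gasdermin and membrane rupture genes tested, 3 rose and 0 fell (median 0.80). Beside Gsdmd these were Gsdma3, at 0.850 ± 0.204 CPM after DMSO and 2.26 ± 0.752 CPM after ABT-263 (log2 fold change 1.40), and Ninj1, which ruptures the plasma membrane after pore formation (1.14, from 49.7 ± 8.83 to 109.3 ± 46.3 CPM). Gsdma3 lies near Gsdma, with Gsdma2 between them. It is a close copy of Gsdma, so the assignment of its few reads is uncertain. Gsdmc, at 37.2 ± 26.5 and 62.5 ± 21.8 CPM, was not called (edgeR adjusted p = 0.317).

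Of the 11 Toll-like receptors tested, 6 rose and 0 fell, the highest median of the 7 lists (2.02). Tlr8, a second receptor for RNA, was at 0, 0.126, 0 and 0.0410 CPM in the DMSO-treated mice, 0 to 3 read pairs each, and at 1.43, 0.554 and 1.09 CPM in ABT-263-treated mice 476 to 478, 22 to 51 read pairs each. Its fitted log2 fold change of 4.43 (edgeR adjusted p = 0.0114) rests on those few control reads. Tlr13, a receptor for bacterial ribosomal RNA, rose by 2.48, and Tlr1 and Tlr6, the partners of Tlr2, by 2.26 and 1.64 on the log2 scale. Tlr3, the receptor for double-stranded RNA, which signals without Myd88, had a difference of 0.40 and was not called (edgeR adjusted p = 0.250).

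Of the 9 co-receptor and chaperone genes 4 rose and 0 fell (median 0.98). Lbp, the serum protein that passes lipopolysaccharide to CD14, had the smallest p-value of all 73 genes: its mean was 34.3 ± 8.32 CPM in DMSO-treated and 155 ± 48.0 CPM in ABT-263-treated mice, a log2 change of 2.17 with an edgeR adjusted p of 0.00622, and it was called in all 7 fits that left out a mouse. Cd180, which dampens TLR4 signalling in macrophages, rose by 2.03, and the receptor chaperone Cnpy3 by 0.60. Ly96 (MD-2), the subunit that binds lipopolysaccharide on TLR4, was at 4.17 ± 1.21 and 6.34 ± 0.355 CPM, and Unc93b1, which carries the endosomal receptors, at 81.1 ± 34.5 and 181 ± 87.1 CPM. In both the groups did not overlap, but neither was called (edgeR adjusted p = 0.124 and 0.0781).

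The signal transducers were the list with the lowest median (0.09), and their counts of 3 higher and 2 lower among 18 genes were near the shares over all genes (12.4% and 11.7%). Those that rose were Myd88, the B cell adaptor Pik3ap1 (2.34, edgeR adjusted p = 0.00785) and the kinase Irak2 (0.74). Of the 7 fits that left out a mouse, Pik3ap1 was called in all 7, and Myd88 and Irak2 in 1 each. Those that fell were the kinase Irak1 and the IκB kinase subunit Chuk. Irak1 went from 91.6 ± 3.32 to 67.6 ± 7.65 CPM, a log2 change of -0.44 (edgeR adjusted p = 0.0349), and Chuk from 30.5 ± 3.68 to 19.9 ± 4.39 CPM, a change of -0.61 (edgeR adjusted p = 0.0414). Neither fall was called without ABT-263-treated mice 477 or 478 or DMSO-treated mice 481, 482 or 483. The remaining 13, among them Tirap, Ticam1, Irak4, Traf6 and Map3k7, were not called, with log2 differences between -0.17 and 0.68. Of the 7 inhibitors 3 rose and 0 fell (median 0.98): the ubiquitin-editing enzyme Tnfaip3 (2.42, from 4.48 ± 0.862 to 24.0 ± 22.0 CPM), its partner Tnip1 (1.19) and the inactive kinase Irak3 (0.98).

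**Figure D4:**
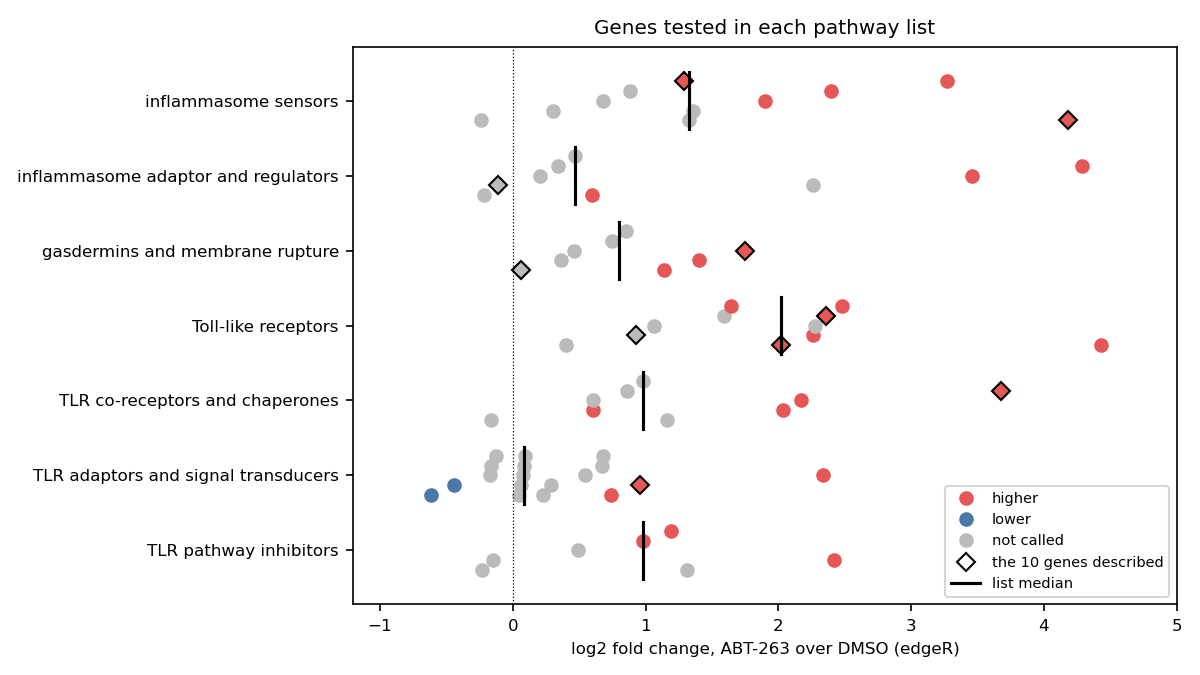
Log2 fold change of each of the 73 pathway genes tested, by list; red points are called higher, blue lower and grey not called, diamonds mark the 10 genes described first, and black bars are list medians. The median is 2.02 for the Toll-like receptors and 0.09 for the signal transducers, the list that holds both genes called lower.

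Interleukin-1β, the cytokine that inflammasomes release, and interleukin-18, the other one, took different courses. Il1b was at 5.11 to 12.04 CPM after DMSO and at 735, 140.1 and 38.4 CPM in ABT-263-treated mice 476, 477 and 478, the order of mice also seen in Nlrp3 and Cd14 (log2 fold change 5.21, SE 0.97, edgeR adjusted p = 0.0132). Il18, which keratinocytes express at rest, was at 71.8, 26.8, 47.1 and 35.3 CPM in DMSO-treated mice 480 to 483 and at 31.4, 55.1 and 33.2 CPM in ABT-263-treated mice 476 to 478 (log2 difference -0.18, edgeR adjusted p = 0.733). In Il18 the highest mouse of each group was 480 and 477, as in Pycard and Gsdma.

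Likeness between profiles was measured as the root mean square difference, over the 7 mice, of log2(CPM + 0.5) values centred on each gene's mean, across 14702 other protein-coding genes. The nearest gene to Nlrp3 was Cd14 (0.39), and the nearest to Cd14 was Hdc (0.30). Gsdmd was nearest to Uba7 (0.11), Tlr2 to Ms4a6c (0.13), Tlr4 to Tm6sf1 (0.20), Tlr7 to Ly9 (0.15), Aim2 to Plvap (0.10) and Myd88 to Sirpa (0.083). Pycard was nearest to Pld3 (0.097) and Gsdma to Wfdc5 (0.13). Of these nearest genes Pld3, Wfdc5, Ly9 and Sirpa were not called. Among the 10 genes themselves the closest pair was Aim2 and Myd88 (0.16).

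Markers of other cell types moved beside the genes that rose. Over all genes tested 12.4% were called higher, and in 18.8% every ABT-263-treated mouse lay above every DMSO-treated mouse. Of 12 monocyte and macrophage markers tested 9 were higher and 0 lower, and their summed level was 411 to 1167 CPM after DMSO and 1341 to 4283 CPM after ABT-263. Adgre1, which encodes F4/80, went from 10.3 ± 3.97 to 43.4 ± 31.6 CPM and Csf1r from 59.7 ± 16.9 to 174.9 ± 78.3 CPM, while Mertk was at 15.9 ± 1.20 and 15.5 ± 8.57 CPM and was not called. Of 10 neutrophil markers 6 were tested and 3 were higher (S100a8, Csf3r and Retnlg), with a summed level of 100.1 to 1821 CPM after DMSO and 5094 to 8389 CPM after ABT-263. S100a8 and S100a9 made up most of that sum (1713 and 3352 of 5094 CPM in mouse 477), and keratinocytes can express both. The defining neutrophil gene Ly6g was at 14.0 CPM in ABT-263-treated mouse 476 and at most 0.252 CPM in the other 6 mice. Mmp8 (59.0 CPM), Ngp (14.7 CPM), Ltf (8.24 CPM) and Camp (4.57 CPM) were likewise high in mouse 476. Mice 477 and 478 lay within the DMSO range for each of these 4 genes. Retnlg and Csf3r were also highest in mouse 476 (232 and 77.8 CPM). Mice 477 and 478 were at 2.09 and 3.02 CPM in Retnlg and at 12.4 and 10.6 CPM in Csf3r. The highest DMSO-treated mouse was at 1.03 CPM in Retnlg and 3.72 CPM in Csf3r. Summed levels of 4 endothelial markers (92.9 to 198 CPM after DMSO, 296 to 398 CPM after ABT-263) and of 5 fibroblast markers (3675 to 5131 and 5758 to 8060 CPM) also did not overlap, with 4 and 3 of them called higher. The summed markers of dendritic and Langerhans cells (1 of 7 tested called higher), T cells, B cells, mast cells, sebaceous gland, hair follicle, adipocytes and skeletal muscle (0 called in each) overlapped between the groups. No marker in any list was at 0 in every mouse. The part of these markers in the rise of Nlrp3, Aim2, Gsdmd, Tlr2, Tlr4, Cd14 and Myd88 was not tested.

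The summed keratinocyte markers overlapped between the groups. Of 5 basal markers 1 was called higher (Itga6, in which the groups did not overlap), and of 7 differentiated ones 0. The 7 markers of differentiated keratinocytes summed to 42804, 12381, 21521 and 12808 CPM in DMSO-treated mice 480 to 483 and to 7320, 27635 and 17815 CPM in ABT-263-treated mice 476 to 478. Those of basal keratinocytes summed to 15458 to 29970 CPM and 13296 to 34788 CPM. Mouse 480 was the highest DMSO-treated mouse and mouse 477 the highest ABT-263-treated mouse in both lists, as they were in Pycard, Gsdma and Il18. Mouse 477 was the highest ABT-263-treated mouse in 35.2% of all 17959 genes tested. The part of the keratinocyte markers in the levels of Pycard, Gsdma and Il18 was not tested.

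**Figure D5:**
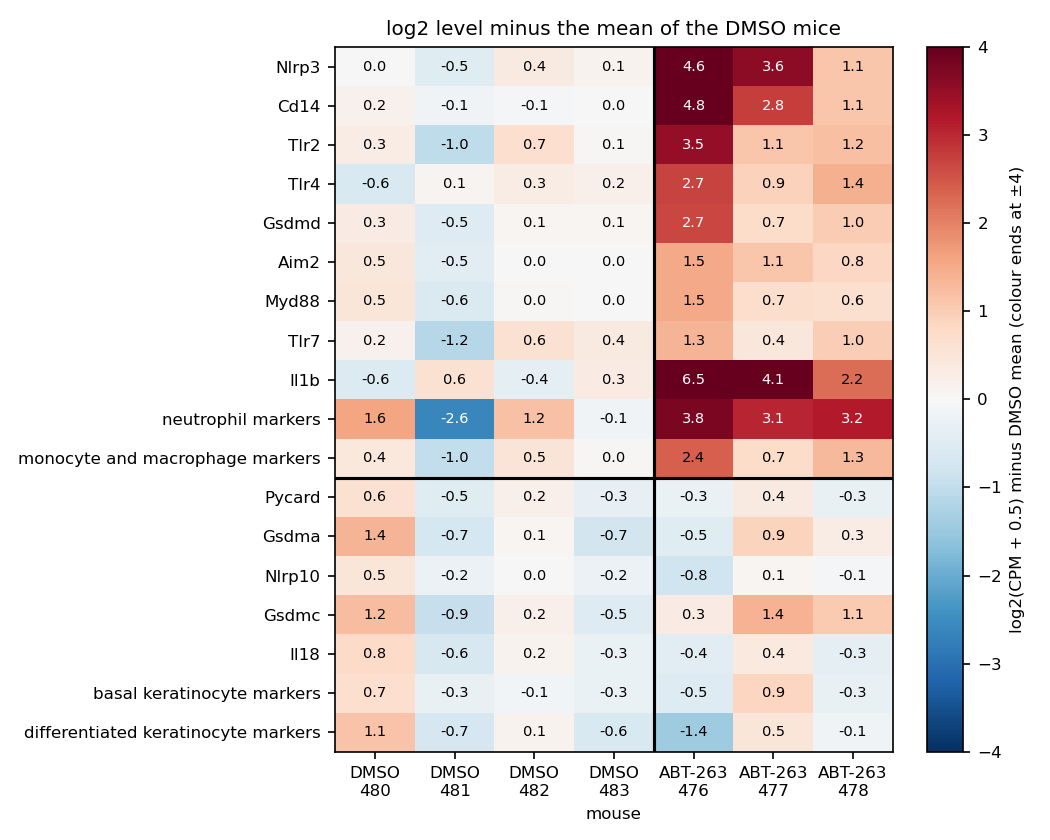
Each mouse's log2(CPM + 0.5) minus the mean of the DMSO-treated mice, for the 10 genes, Il1b, Il18, Nlrp10, Gsdmc and the summed markers of 4 cell types; Nlrp10 and Gsdmc were added after their values were seen. Above the line the ABT-263-treated mice are red throughout and mouse 476 is the highest. Below it mice 480 and 477 are the highest of their groups in each row. The rows on each side were picked by hand. Other marker lists are not shown, among them fibroblast (highest in mouse 478, 8060 CPM) and endothelial markers (highest in mouse 476, 398 CPM), whose groups also did not overlap.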

How the data were processed

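Polyadenylated RNA of dorsal skin was sequenced in bulk, with 7 libraries in all. Per the methods and the labels, the authors aligned reads to mm10 with STAR 2.7.9a and deposited raw counts per Ensembl gene, from properly paired, uniquely placed reads of matching strand, mitochondrial genes excepted (featureCounts, Subread 1.6.2). They also deposited variance-stabilized values on a log2 scale (DESeq2 1.23.10), used here only as an alternative. Symbols, positions and exon lengths came from GENCODE M21 (GRCm38, the assembly of mm10; the annotation release differs from that of the counts), which held 55190 of 55450 identifiers; upstream sequence came from RefSeq. The counts were fitted with edgeR 4.0.16 in R 4.3.3 (TMM, filterByExpr, robust quasi-likelihood test, two-sided, Benjamini-Hochberg adjustment over 17959 genes), ABT-263 against DMSO with no covariate, and the scripts were tested on simulated data. Alternatives were DESeq2 1.42.0, its size factors, other count filters, thinned counts, removal of length and GC trends (mgcv 1.9.3), limma 3.58.1 on the variance-stabilized values, and leaving out each mouse. Each SE of an edgeR log2 fold change was its absolute value divided by the square root of the test's F statistic. The 95% confidence intervals are symmetric t intervals built from these SEs. The 10 genes, the pathway and marker lists and the tests were chosen with earlier results of these data known. Named genes were the 10, up to 12 called genes of the pathway lists in each direction by p-value, Il1b, Il18, the nearest profile of each gene and markers of lists that moved. Genes named outside this rule, such as Nlrp10, Gsdmc, Naip2, Gbp5 and the other pathway genes given beside each list, were chosen after their values were seen.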

Additional observations from a re-analysis of the deposited data

Results flagged for a closer look

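Among 31 measures examined in the 4 DMSO-treated mice for a mouse set apart from the rest of its group by Dixon's ratio (95% critical value, which chance alone passes in 1.55 of 31 measures), 5 exceeded the critical ratio of 0.829. The log2 ratio of Tlr4 to Cd14 was -3.24 in mouse 480 against -2.08 to -1.86 in the others (ratio 0.840). The summed mast cell markers were at 159.6 CPM in mouse 480 against 55.9 to 68.5 CPM (0.878), and those of basal keratinocytes at 29970 CPM in the same mouse against 15458 to 17676 CPM (0.847). Hair follicle markers summed to 2571 CPM in mouse 481 against 17.7 to 20.3 CPM (0.999), and adipocyte markers to 1486 CPM in mouse 483 against 567 to 724 CPM (0.829, just past the critical value). None of the 10 genes exceeded it by itself.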

How the results depend on the processing

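Of the 10 genes, 7 were called higher in the edgeR fit, with DESeq2's Wald test, with at least 10 counts in every sample and with thinned counts, and 6 (all but Myd88) with DESeq2's size factors or with length and GC trends removed. On the variance-stabilized values limma called 4 (Nlrp3, Aim2, Tlr4 and Cd14), and with every gene of at least 1 count tested 3 were called (Nlrp3, Aim2 and Tlr4). With each mouse left out between 2 and 6 were called, and Nlrp3 was called in every fit run. Of the pathway genes 16 were higher and 0 lower with every gene tested. With each mouse left out between 7 and 27 were higher and between 0 and 2 lower, with medians from 0.62 to 1.13. Over all genes between 850 and 2286 were then higher and between 771 and 2104 lower. The log2 difference of Pycard changed sign without ABT-263-treated mice 476 or 478 or DMSO-treated mouse 480 (0.0021, 0.011 and 0.12; range -0.33 to 0.12). That of Gsdma did with length and GC trends removed (-0.051) and without ABT-263-treated mouse 477 or DMSO-treated mice 481 or 483 (-0.30, -0.16 and -0.16; range -0.30 to 0.73). That of Il18 was 0.13 without mouse 480 (range -0.46 to 0.13). None of these 3 genes was called in any fit, and the cause was not tested. No paired analysis was possible because the groups share no mouse numbers.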
